A study of Homo sapiens with 15 samples.

Results

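The BCL2 family decides whether the outer membrane of mitochondria stays intact, and 10 of its genes are described here in C4-2B cells, an established prostate adenocarcinoma line derived from LNCaP. The genes were taken by name, with earlier results of these data known. All 10 were found among the 58302 genes of the count tables. They comprise 4 anti-apoptotic genes (MCL1, BCL2L1, BCL2L2 and BCL2), 2 effectors (BAX and BAK1) and 4 BH3-only genes (BCL2L11, PMAIP1, BBC3 and BID). RNA-seq was labelled for 15 samples in 5 groups, and the 3 libraries of the C4-2B group were analysed here. These cells carry the label wild type and were grown in RPMI with fetal bovine serum, with no drug or siRNA named for them. The other groups, DKD and ER cells of neuroendocrine-like type that received scr or siPax5, were not analysed here, so no comparison between cell states or after Pax5 depletion was made. C4-2B is a single cell line, and the labels do not say whether the replicates were separate cultures, so the spread given here may be technical.

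In outline, anti-apoptotic proteins hold the effectors BAX and BAK1 in check on the mitochondrial surface. BH3-only proteins sense stress and either occupy the groove of the anti-apoptotic proteins or activate the effectors directly. Once active, BAX and BAK1 form pores, cytochrome c leaves the mitochondria and caspases are switched on. Many tumour cells, those of the prostate included, rely on anti-apoptotic members, and taxanes kill partly through this pathway.

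The BH3 core is the stretch of sequence by which these proteins bind each other. To see what the members share in sequence, the coding sequence of each canonical transcript (GENCODE release 44, read from the GRCh38 genome) was searched for a leucine, any 3 residues, a glycine and an aspartate. This pattern occurred once in 8 of the 10 members. The other two members held the looser form of the pattern, with methionine in place of leucine in BCL2L2 and alanine in place of glycine in BBC3. Of 20046 canonical coding sequences, 13.6% held the strict pattern. With methionine allowed for leucine and alanine for glycine, alone or together, 28.8% held a match, strict matches included. The pattern alone therefore does not mark the family. The 7 members below are shown over 36 bases each, since they cover the 3 classes, both looser forms and the members whose core lies under another gene. Capitals mark the codons of the leucine or methionine, of the glycine or alanine, and of the aspartate, and the flanks are 3 codons on each side.
MCL1: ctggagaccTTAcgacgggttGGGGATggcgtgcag
BCL2L1: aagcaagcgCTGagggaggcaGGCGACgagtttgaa
BCL2L2: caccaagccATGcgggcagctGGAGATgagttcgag
BAX: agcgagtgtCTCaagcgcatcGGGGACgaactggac
BAK1: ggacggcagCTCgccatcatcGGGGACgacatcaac
BCL2L11: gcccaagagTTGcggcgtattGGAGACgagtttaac
BBC3: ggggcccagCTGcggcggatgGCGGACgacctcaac

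All are written 5′ to 3′ on the strand of the gene. On GRCh38 the stretch lies at chr1:150578868-150578903 on the minus strand for MCL1, at chr20:31721925-31721960 on the minus strand for BCL2L1 and at chr14:23307894-23307929 on the plus strand for BCL2L2. It lies at chr19:48955778-48955813 on the plus strand for BAX and at chr6:33575390-33575425 on the minus strand for BAK1. For the BH3-only genes it lies at chr2:111150094-111150129 on the plus strand for BCL2L11 and at chr19:47226582-47226617 on the minus strand for BBC3. In every member the 36 bases fall within a single coding exon. For 3 members, BCL2L1, BCL2L2 and BAK1, all 36 bases also lie under an exon of another listed gene, which bears on their counts as described further on.

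Levels are given as TPM, a gene's reads per base of its exons scaled so that all genes of every library sum to the same total, which allows genes of different length to be compared. The libraries held between 44992971 and 49569026 counts in genes. In bulk RNA, a low level in every cell and a higher level in few cells cannot be told apart. The prostate luminal markers KLK3, KLK2, TMPRSS2, KRT8 and KRT18 were all at 197 TPM or more, with a summed level of 2947 to 2977 TPM over the libraries. The neuroendocrine markers CHGA and SYP were at 1.38 and 1.31 TPM (summed range 2.47 to 2.98). Of the markers of other cells, KRT14 was at 0.865 TPM, KRT5 and PTPRC had 1 and 2 counts in all, and COL1A2 had 0 counts. COL1A1 stood out from the stromal pair at 7.09 ± 0.581 TPM (SD, n = 3). Their part in the levels of the members was not tested.

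Each of the 10 members reached 1 TPM in every one of the 3 libraries. Over all protein-coding genes listed, 61.2% of 19708 met this level. The members spanned from MCL1, above 94.9% of protein-coding genes, to BCL2, above 41.3% of them. Together they came to 325 ± 1.74 TPM (SD, n = 3).

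**Figure D1:**
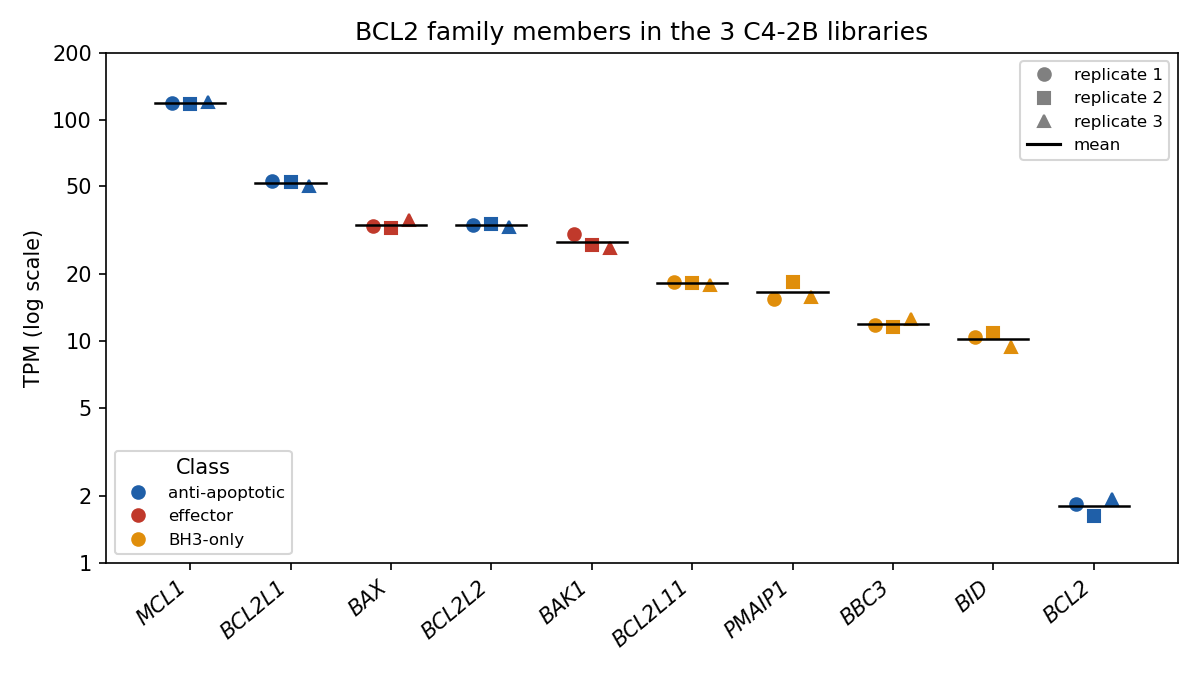
TPM (log axis) of the 10 members in each of the 3 C4-2B libraries, ordered by mean, with symbols for replicates, a black line for the mean and colour for the class. MCL1 lies highest near 119 TPM, BCL2 lowest near 1.80 TPM, and the 4 BH3-only genes lie together between 9.42 and 18.5 TPM.

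Among the anti-apoptotic genes, MCL1 was the most abundant and BCL2 the least. MCL1 encodes a short-lived protein that restrains BAK1 and binds most BH3-only proteins. MCL1 (ENSG00000143384, chromosome 1, 150574551 to 150579738, minus strand) was at 119, 118 and 121 TPM in replicates 1, 2 and 3, a mean of 119 ± 1.34 (SD, n = 3). The 3 values differed by less than 1.02-fold in CPM, the counts scaled to the library total. MCL1 made up 57.8% ± 0.763 of the anti-apoptotic sum and 36.7% of the TPM of all 10 members.

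BCL2L1 encodes BCL-XL, and by splicing also a short form of opposite function that counts per gene do not separate. BCL2L1 (ENSG00000171552, chromosome 20, 31664452 to 31723989, minus strand) was at 52.7, 52.4 and 50.1 TPM, a mean of 51.7 ± 1.41 (SD, n = 3). In each library MCL1 exceeded it, by 2.31 ± 0.0892 times, or 1.32 ± 0.0509 times over exon bases under no other gene (SD, n = 3 each). BCL2L2, which encodes BCL-W, a relative of BCL-XL with the same role (ENSG00000129473, chromosome 14, 23298790 to 23311759, plus strand), was at 33.6, 33.7 and 32.8 TPM, a mean of 33.4 ± 0.486 (SD, n = 3).

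BCL2, the founding member of the family (ENSG00000171791, chromosome 18, 63123346 to 63320128, minus strand), was far below these. It had 313, 305 and 337 counts over 11765 exon bases, at 1.84, 1.63 and 1.94 TPM, a mean of 1.80 ± 0.158 (SD, n = 3). An exact Poisson interval at 95% around its 955 counts runs from 895 to 1018. This interval covers counting error only and is too narrow, since both mates of a read pair were counted. BCL2 took 0.874% ± 0.0770 of the anti-apoptotic sum, and its level was 0.0349 ± 0.00380 times that of BCL2L1 (SD, n = 3). This ratio was 0.0199 over exon bases under no other gene and 0.0463 over canonical transcripts. BCL2 had the longest exon union of the members. It shares no exon base with another gene, so over exon bases under no other gene only the scaling total changed, to 1.72 TPM. Over canonical transcripts it was at 2.07 TPM.

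The effectors BAX and BAK1 were close to each other at deposited lengths. With the same counts divided by canonical transcript lengths, BAX was 3.85 ± 0.403 times BAK1 (SD, n = 3). BAX moves from the cytosol to mitochondria when activated, whereas BAK1 resides there. BAX (ENSG00000087088, chromosome 19, 48954815 to 48961798, plus strand) was at 33.0, 32.5 and 35.3 TPM, a mean of 33.6 ± 1.49 (SD, n = 3). BAK1 (ENSG00000030110, chromosome 6, 33572547 to 33580293, minus strand) was at 30.5, 27.1 and 26.5 TPM, a mean of 28.0 ± 2.17 (SD, n = 3). BAX was the higher of the pair in 3 of 3 libraries and the ranges did not overlap, with ratios of 1.08, 1.202 and 1.33 and a mean of 1.21 ± 0.126 (SD, n = 3).

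The 4 BH3-only members were lower than both effectors. The further BH3-only genes BIK and BAD, described below, were above both at deposited lengths, at 42.8 and 38.3 TPM. BCL2L11, which encodes BIM, an activator of BAX and BAK1 that is known to respond to growth factor withdrawal and taxanes (ENSG00000153094, chromosome 2, 111119378 to 111168447, plus strand), was at 18.5, 18.4 and 17.9 TPM, a mean of 18.2 ± 0.308 (SD, n = 3). PMAIP1, which encodes NOXA, a binder of MCL1 (ENSG00000141682, chromosome 18, 59899948 to 59904306, plus strand), was at 15.5, 18.5 and 15.8 TPM, a mean of 16.6 ± 1.66 (SD, n = 3). Replicate 2 was the high one for PMAIP1, and there it lay above the BCL2L11 level of the same library. BBC3, which encodes PUMA, a binder of all anti-apoptotic members (ENSG00000105327, chromosome 19, 47220822 to 47232766, minus strand), was at 11.8, 11.6 and 12.5 TPM, a mean of 11.97 ± 0.503 (SD, n = 3). BID, which is cut by caspase-8 and carries the signal of death receptors to mitochondria (ENSG00000015475, chromosome 22, 17734138 to 17774770, minus strand), was at 10.4, 10.8 and 9.42 TPM, a mean of 10.2 ± 0.724 (SD, n = 3). BAX, BBC3 and PMAIP1 are textbook targets of p53, and BAX, at 33.6 TPM, lay above BBC3 and PMAIP1, at 11.97 and 16.6 TPM.

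By mean TPM the order was MCL1, BCL2L1, BAX, BCL2L2, BAK1, BCL2L11, PMAIP1, BBC3, BID and BCL2. Of the 9 pairs of neighbours in this order, 7 had library ranges that did not overlap. BAX and BCL2L2 did not differ beyond their spread (ratio 1.01 ± 0.0598), nor did BCL2L11 and PMAIP1 (ratio 1.10 ± 0.101, SD, n = 3 each). The widest steps between neighbours at deposited lengths were from BID to BCL2 (5.73 ± 0.898 times) and from MCL1 to BCL2L1. Over exon bases under no other gene, the step from BCL2L1 to BCL2L2 (2.06 ± 0.0288 times) was wider than that from MCL1 to BCL2L1 (1.32 ± 0.0509 times). Over canonical transcripts the widest step was from PMAIP1 to BCL2 (6.42 ± 1.22 times). The steps from BCL2L1 to BCL2L2 (1.68 ± 0.0235 times) and from BAX to BCL2L1 (1.65 ± 0.119 times) came next.

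To compare the classes, their levels were summed within each library. The anti-apoptotic genes summed to 207, 206 and 206 TPM, a mean of 206 ± 0.689 (SD, n = 3). The effectors summed to 61.6 ± 1.96 TPM and the BH3-only genes to 57.1 ± 1.98 TPM (SD, n = 3 each). Summed anti-apoptotic TPM was 1.73, 1.73 and 1.75 times the summed TPM of effectors and BH3-only genes, a mean of 1.74 ± 0.0114 (SD, n = 3). The BH3-only to effector ratio was 0.884, 0.995 and 0.901, a mean of 0.927 ± 0.0599, so that in replicate 2 both sums were nearly equal. As medians of the 10 members at deposited lengths, the anti-apoptotic class was at 42.5 TPM, the effectors at 30.8 and the BH3-only genes at 14.3. Over canonical transcripts BAX, at 73.6 TPM, lay above BCL2L1 at 44.8 and BCL2L2 at 26.7, while BAK1, at 19.2, lay below both. The order of the medians is therefore given for these genes and lengths only. No test was run on these ratios, because the members were chosen with earlier results of these data known and genes are not replicates.

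The class ratio depended on which genes were summed. Further BCL2 family genes were taken from textbook roles. BOK, an effector-like relative of BAX and BAK1, was at 69.8 ± 2.81 TPM (SD, n = 3), second to MCL1 among 17 family genes at deposited lengths. Over unshared bases BOK was at 71.8 TPM, behind MCL1 and BCL2L1, and over canonical transcripts at 48.5 TPM, behind MCL1 and BAX. The BH3-only genes BIK and BAD were at 42.8 ± 1.46 and 38.3 ± 1.67 TPM (SD, n = 3 each), above all 4 BH3-only members under each length. BMF was at 7.15 ± 0.674 TPM. HRK, a BH3-only gene known from neurons, had 13, 31 and 15 counts (0.188 ± 0.0840 TPM). The remaining anti-apoptotic genes were at or near 0, with 3, 3 and 4 counts for BCL2L10 and 0 counts in all 3 libraries for BCL2A1, which allows up to 0.0610 TPM. With these 7 genes added, a choice made after their values were seen, the anti-apoptotic sum was 206 ± 0.673 TPM and the effector and BH3-only sums were 131 ± 3.38 and 145 ± 2.23 TPM (SD, n = 3 each). The ratio of anti-apoptotic to pro-apoptotic TPM was then 0.745 ± 0.0124, below 1 in 3 of 3 libraries, and the BH3-only to effector ratio was 1.11 ± 0.0165 (SD, n = 3 each). For the 17 genes under the other lengths, the first ratio was 0.864 and 0.579, below 1 in every library, while the second was 1.15 over unshared bases and 0.984 over canonical transcripts, where the libraries lay on both sides of 1.

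**Figure D2:**
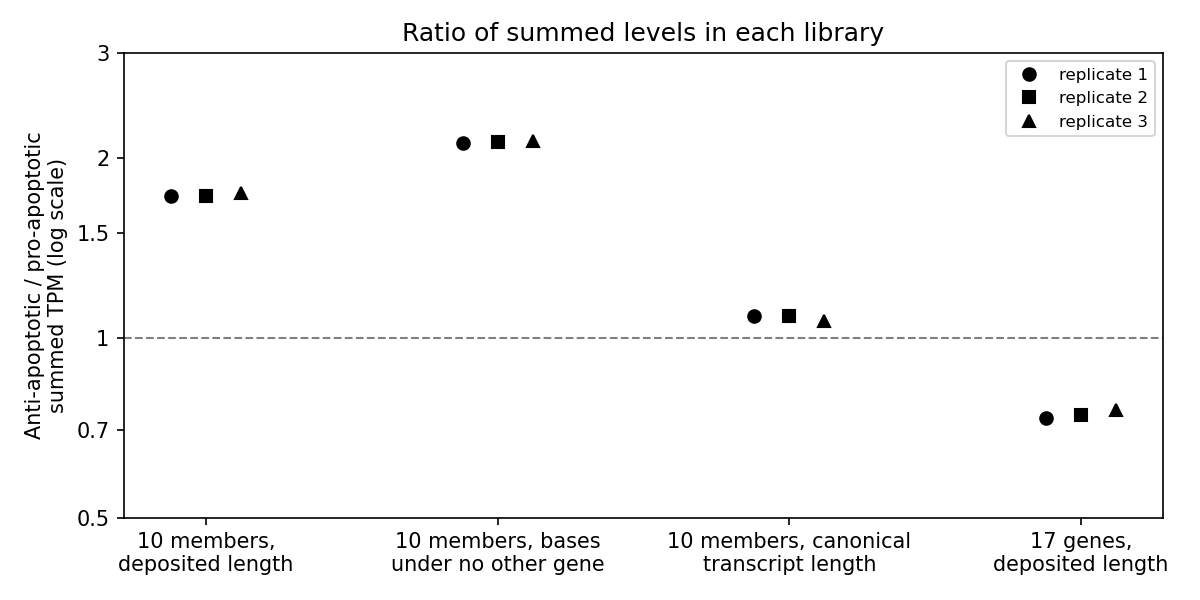
Ratio of summed anti-apoptotic to summed pro-apoptotic TPM (log axis, dashed line at 1) in each of 3 C4-2B libraries, for the 10 members under 3 gene lengths and for 17 family genes. The ratio is 1.74 for the members at deposited lengths, 2.13 and 1.08 at the other lengths, and 0.745 for the 17 genes, while replicates lie close together in each setting.

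The counting rule weighed on individual members. The authors counted reads on either strand, and a read touching exons of more than 1 gene was given to none. BCL2L1 shares 43.0% of its 3314 exon bases with ABALON, a long non-coding gene on the opposite strand, and the shared part includes its BH3 core printed above. BCL2L2 shares 24.3% of its 4189 exon bases with other genes, 813 bases with the read-through gene BCL2L2-PABPN1 on the same strand, its BH3 core among them, and 206 bases with PPP1R3E on the opposite strand. The overlapping genes themselves had few counts in the case of ABALON (58, 62 and 69) and BCL2L2-PABPN1 (16, 14 and 11), while PPP1R3E had 1261, 1408 and 1372. BAK1 shares 4.11% with GGNBP1, again over its BH3 core, BBC3 shares 2.52% with MIR3190 and MIR3191, and MCL1 shares 2 bases. The other 5 members share none. Reads from these shared bases are therefore missing from the counts of BCL2L1 and BCL2L2, while the bases are included in their deposited lengths.

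**Figure D3:**
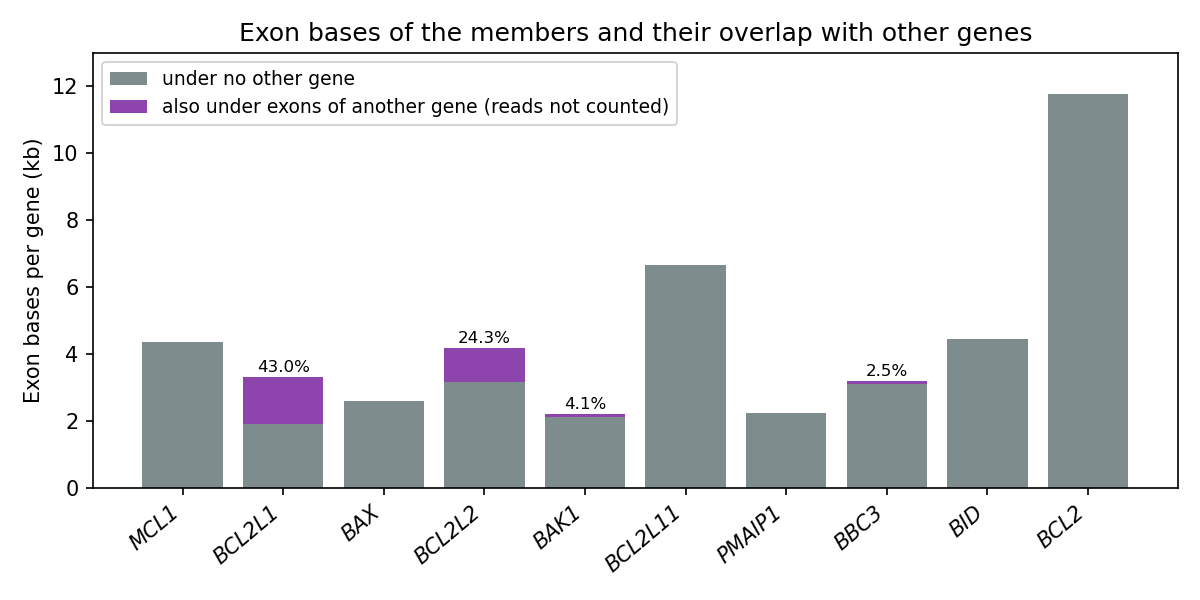
Exon bases per gene in kb for the 10 members, split into bases under no other gene (grey) and bases also under exons of another gene, where reads were not counted (purple), with the shared percentage above the bars over 1%. BCL2L1 (43.0%) and BCL2L2 (24.3%) stand apart from the others, which share 4.11% or less.

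When TPM was recomputed over exon bases under no other gene, BCL2L1 was 1.67-fold higher at 86.4 ± 2.37 TPM and BCL2L2 1.26-fold higher at 42.0 ± 0.616 TPM (SD, n = 3 each). The scaling total changed as well, so that BCL2, which shares no base, came to 0.953 times its level at the deposited length. MCL1 stayed highest at 114 ± 1.27 TPM, and its share of the anti-apoptotic sum was 46.6% ± 0.817 (SD, n = 3 each). BCL2L2 then lay above BAX in all libraries, by 1.31 ± 0.0756 times.

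A different length, that of the canonical transcript, mainly moved BAX. Its exon union of 2587 bases includes exons of several transcripts, against 795 bases in the canonical one. Counts were not restricted to canonical exons, so reads from other exons of a gene stay in its count. The BAX level over this length may therefore be too high. Over this length BAX was at 73.6 ± 3.31 TPM, second to MCL1 at 88.8 ± 1.05 TPM, and BAK1 at 19.2 ± 1.47 TPM (SD, n = 3 each). The anti-apoptotic to pro-apoptotic ratio was 1.08 ± 0.0114, still above 1 in 3 of 3 libraries. BCL2 was lowest and MCL1 highest under all 3 lengths, whereas the places of BAX, BCL2L1 and BCL2L2 changed with the length. The order PMAIP1, BBC3 and BID turned to BID, BBC3 and PMAIP1 over canonical transcripts, at 14.1, 13.9 and 13.2 TPM, where the ranges of neighbours among these 3 overlapped.

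**Figure D4:**
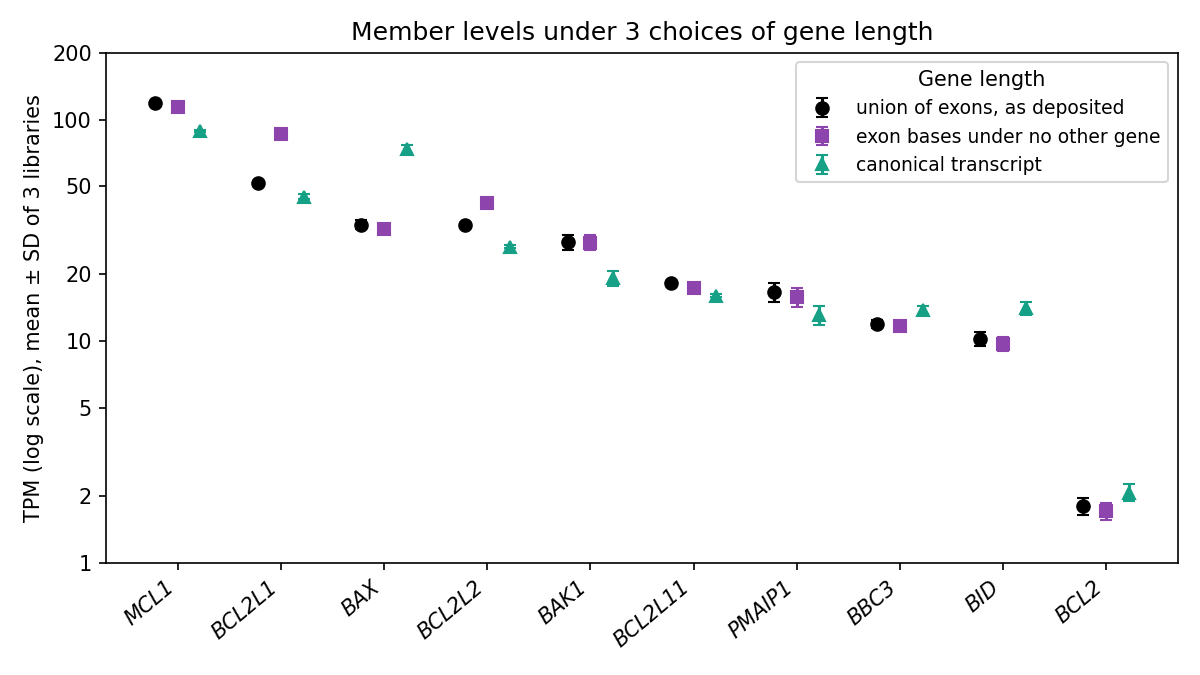
Mean TPM ± SD of 3 libraries (log axis) for each member with the deposited exon union (black circles), exon bases under no other gene (purple squares) and canonical transcript length (green triangles). BCL2L1 moves from 51.7 to 86.4 TPM without shared bases, BAX from 33.6 to 73.6 TPM over the canonical transcript, and BCL2 stays between 1.72 and 2.07 TPM.

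To see whether the members differed between replicates, each gene's 3 counts were compared with the library sizes by a chi-square test across 22229 genes, which compares libraries and not conditions. The statistic was divided by 2 because both mates of a read pair were counted. With Benjamini-Hochberg adjustment, 0 of 10 members passed an adjusted p of 0.05, where 0.792% of all genes tested did. The count was also 0 with the size factors of DESeq2 or with total counts as library sizes. At an unadjusted p under 0.05 there was 1 member of 10, BAK1, where 11.3% of all genes tested passed. BAK1 was highest in the first library and had an adjusted p of 0.434 by the chi-square test with TMM library sizes of edgeR. PMAIP1, highest in the second library, came next with an adjusted p of 0.472. Without the division, 2 of 10 members passed, BAK1 (adjusted p = 0.0200) and PMAIP1 (adjusted p = 0.0280), against 17.3% of all genes. The spread of the members ran from a coefficient of variation of 1.12% for MCL1 to 9.97% for PMAIP1, and 3 members (PMAIP1, BCL2 and BAK1) lay above 7.10%, the median of all genes tested.

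The rest of the mitochondrial death pathway was described from lists of genes with textbook roles. All 7 genes of the mitochondrial pore and released proteins reached 1 TPM in every library, from VDAC1, the main channel of the outer membrane, at 349 ± 6.31 TPM to DIABLO, a released antagonist of caspase inhibitors, at 5.32 ± 0.247 TPM (SD, n = 3 each). CYCS, which encodes cytochrome c, was at 149 ± 1.88 TPM. All 6 genes of the caspase and apoptosome list were at this level too, from CASP2 at 40.6 ± 0.710 TPM to CASP9, the caspase that the apoptosome activates, at 3.13 ± 0.185 TPM (SD, n = 3 each). APAF1, the scaffold of the apoptosome, was at 9.88 ± 0.263 TPM.

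Of the 5 inhibitors of apoptosis, BIRC5, which encodes survivin and is known from dividing cells, was highest at 116 ± 1.98 TPM and BIRC3 lowest at 10.1 ± 0.687 TPM (SD, n = 3 each). The 4 genes of the death receptor arm lay between 7.86 and 14.3 TPM at deposited lengths, around the level of BID. CFLAR, a decoy of caspase-8, was lowest and FADD, the adaptor of the receptor complex, highest. Over exon bases under no other gene, FADD was at 30.2 TPM and BID at 9.75 TPM. Of the 7 upstream regulators and tethers, ATF4, a transcription factor of the stress response that induces PMAIP1, was highest at 426 ± 9.14 TPM, and FOXO3, a transcription factor that induces BCL2L11 and BBC3, lowest at 46.8 ± 1.53 TPM (SD, n = 3 each). FADD and CFLAR were the highest and lowest of their list at deposited lengths, whereas over canonical transcripts CASP8 (19.5 TPM) and FAS (6.34 TPM) were. Of the genes named here, FADD has 54.9%, BAD 23.7% and DIABLO 21.97% of the exon bases under other genes, where reads were not counted. Of the 37 genes of these lists and of the further family genes that could be tested, 0 passed the divided chi-square test between libraries, where 0.792% of all genes did. Without the division 7 of the 37 passed (18.9%, against 17.3% of all genes).

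**Figure D5:**
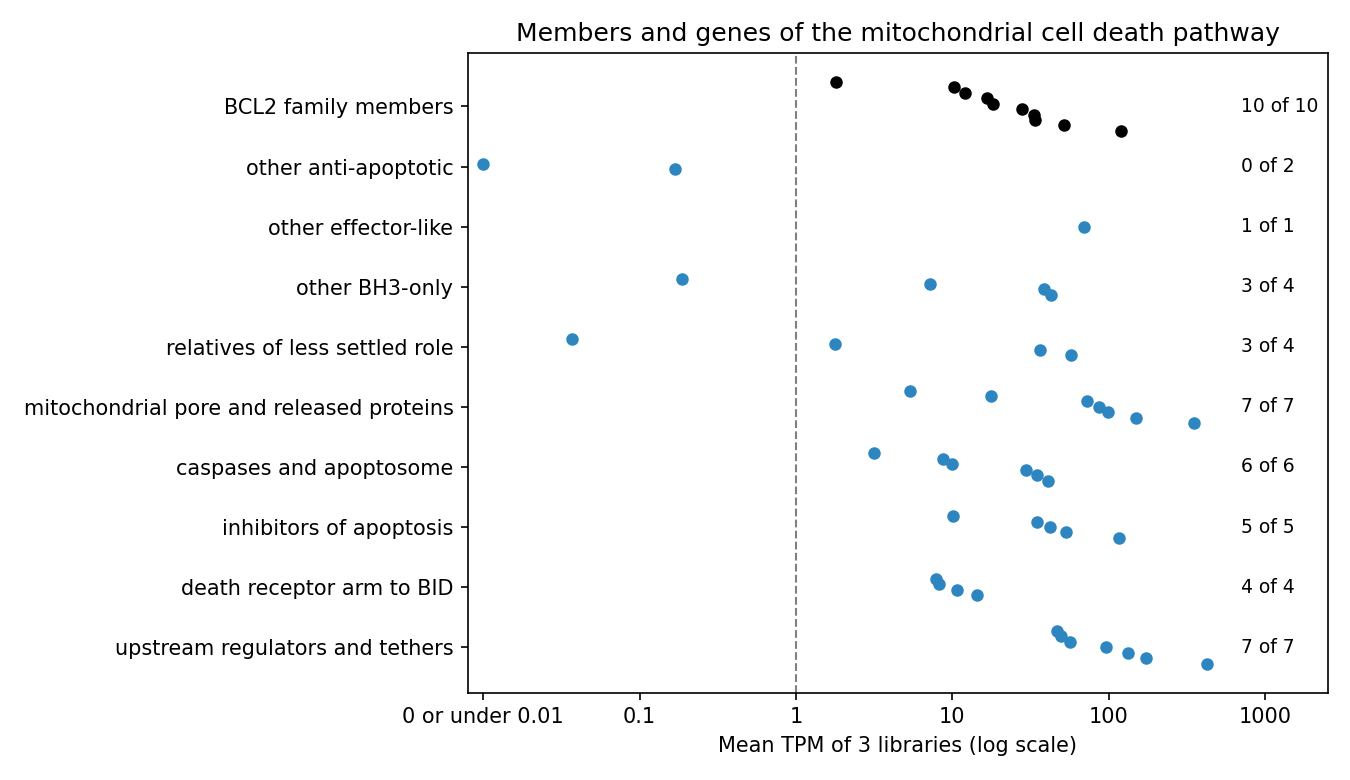
Mean TPM of 3 C4-2B libraries (log axis) for the 10 members (black) and for genes of the lists (blue), with how many reached 1 TPM in each library at the right and a dashed line at 1. Genes under 1 TPM occur in 3 lists, those of other anti-apoptotic genes (0 of 2 at this level), other BH3-only genes (3 of 4) and relatives of less settled role (3 of 4).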

How the data were processed

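RNA-seq of total RNA depleted of ribosomal RNA was carried out by the authors as read pairs. Reads were aligned with STAR 2.7.0f to GRCh38, as named in the submitters' processing notes. Per the file headers, the authors counted reads per gene with featureCounts of Subread 1.6.3 over Ensembl release 90, and the deposited counts carry no normalization. The recorded command set no strand and did not pair mates, and it left out reads over several genes or places. Gene length in the authors' files equalled the union of the listed exons for every gene.

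TPM was computed here from counts and deposited lengths. Symbols were matched by Ensembl identifier for 57532 of 58302 genes, with gene types and canonical transcripts of GENCODE release 44, which is on the same build. Total counts were 44992971, 49569026 and 46232076. Intervals of counts are exact Poisson intervals at 95%, and the limit for 0 counts is the TPM of 3 counts over the 3 libraries. Both cover counting error only and are too narrow, since each mate of a pair adds a count and no molecular identifiers are named in the labels.

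Libraries were compared by a chi-square test with 2 degrees of freedom across all genes with at least 30 counts, against library sizes scaled by TMM (edgeR 4.0.16), with the statistic divided by 2 and Benjamini-Hochberg adjustment. The test was run on simulated counts in which both mates of each pair added a count. The division by 2 holds there by construction, so the simulation cannot show whether it suits the real libraries. In the real libraries, 11.3% of genes tested had an unadjusted p under 0.05 by the divided chi-square test. This is above the share expected without differences between libraries. A quasi-likelihood test between conditions was not possible with 1 group. Alternatives were size factors of DESeq2 1.42.0, total counts, a minimum of 1 count, the undivided statistic, 2 other gene lengths, 2 other TPM denominators and leaving out each replicate. For lengths under no other gene, 1792 genes had no such base and were left out. With both other lengths the counts were unchanged. Sequences were read with Biopython 1.88.

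Named genes are the 10 members, the cell type markers and, of each further list, the highest, the lowest and those under 1 TPM. CYCS, APAF1, BAD, BMF, BCL2L13, BCL2L14, HUWE1, USP9X and the length-dependent places of BOK, CASP8 and FAS were named after values were seen. The members and lists were chosen with earlier results of these data known. Genes of like pattern were not sought, since 3 replicates of 1 group hold no pattern over conditions.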

Additional observations from a re-analysis of the deposited data

How the results depend on the processing

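No paired analysis was possible because only the C4-2B libraries entered the analysis, so that no second group could carry the same replicate numbers. With exon bases under no other gene, the ratio of anti-apoptotic to pro-apoptotic TPM was 2.13, the MCL1 share 46.6% and the ratio of BCL2 to BCL2L1 0.0199, where BCL2L1 and BCL2L2 are divided by fewer bases. With canonical transcript lengths, the same values were 1.08, 54.7% and 0.0463, the ratio of BAX to BAK1 was 3.85 and that of BH3-only to effector genes 0.616. With the classes widened by 7 genes, chosen after the data were examined, the anti-apoptotic to pro-apoptotic ratio turned to 0.745 and the BH3-only to effector ratio to 1.11, and with the other lengths as well to 0.864 and 1.15 (unshared bases, MCL1 share 46.6%) and to 0.579 and 0.984 (canonical, MCL1 share 54.7%). Beyond the lengths themselves, the cause was not tested. All 10 members were at a TPM of at least 1 under each length, and 9 were at a TPM of at least 5 at deposited lengths. The other denominators and the left-out replicates also gave 10, but they could not lower this count. A smaller total raises every level, and a library left out removes a condition. Other denominators raised every member, 1.45-fold without the 10 most abundant and mitochondrial genes and 1.39-fold over protein-coding genes. Each denominator is the same for all genes of a library, so the order within a library could not change. With the chi-square not divided, 2 members and 3835 genes differed between libraries in place of 0 and 176, as mates were then taken as independent. Leaving out 1 replicate gave 38 to 223 genes, 38 without replicate 1, 223 without replicate 2 and 44 without replicate 3, and 0 members each time. With another scaling, or with every gene of at least 1 count tested, 0 members and 118 to 180 genes passed. The least counted member, BCL2, had 955 counts.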

Other observations

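Genes named for their likeness or closeness to members had few counts. BAK1P1, a pseudogene of BAK1, had 11, 9 and 16 counts in replicates 1, 2 and 3, and BAK1P2 had 0 in each. Reads that fit BAK1 and a pseudogene equally well were not counted for either. BCL2L1-AS1, an antisense gene of the BCL2L1 locus that is separate from ABALON, had 56, 38 and 59 counts.

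Among relatives of less settled role, BCL2L12 was at 57.6 ± 2.03 TPM and BCL2L13 at 36.6 ± 0.874 TPM, both above BAX at deposited lengths, whereas BCL2L14 was at 1.79 ± 0.187 TPM (SD, n = 3 each) and BCL2L15 had 5, 2 and 0 counts. Over canonical transcripts BCL2L13 was at 38.0 TPM, below BAX at 73.6 TPM. Other genes cover 33.1% of the exon bases of BCL2L12, where reads were not counted. HUWE1, a ligase that marks MCL1 for breakdown, was at 173 ± 2.32 TPM, and USP9X, which removes such marks, was at 56.7 ± 1.53 TPM (SD, n = 3 each), against 119 TPM for MCL1.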
